A study of Mus musculus with 82 samples.

Results

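The biopsies compared were of the dorsal skin of 4 mice, taken 2 h (h2) and 4 days (d4) after 20 Gy of whole-body X-rays. All arrays whose labels give 20 Gy and one of these time points were taken and matched by mouse number, which gave 8 of the 82 arrays of the series. Mice M021, M022, M023 and M024 each gave 1 array at h2 and 1 at d4. They were male C57BL/6j animals, 8 weeks old when bought, and the labels name no engineered allele. Each mouse was anesthetized with ketamine and xylazine, shaved, irradiated once with a linear accelerator and biopsied at both time points, so the d4 skin came from an animal already wounded at h2. Sham mice went through the same steps without radiation, and mice given 1, 3 or 6 Gy were biopsied on the same schedule. The pieces of skin held their own blood, no cell type was sorted, and mice of 20 Gy were euthanized by d7.

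The surface of the skin is a stack of keratinocytes that divide in the basal layer, stop dividing as they move up, and end as flat dead cells. In the last living layer they make late cornified envelope proteins (the Lce genes), loricrin, hornerin and other proteins that are crosslinked into a tough shell, and most of these genes lie side by side in one cluster, the epidermal differentiation complex. Ionizing radiation breaks DNA, which activates the transcription factor p53. Its targets include Cdkn1a, an inhibitor of the cell cycle, and replication-dependent histone genes are transcribed while DNA is copied.

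On each array the RNA of a biopsy (Cy5) was set against a commercial universal mouse reference RNA (Cy3). A level is the log2 ratio of biopsy over reference after normalization, and a change is the d4 level minus the h2 level of the same mouse, so that a change of 1 is a doubling. The change was tested with limma over the 4 mice, and a gene was said to have risen or fallen where the Benjamini-Hochberg adjusted p was under 0.05 and the change at least 2-fold. All 4 h2 arrays lay on one slide and all 4 d4 arrays on another, at the same positions for the same mouse. Slide and time point therefore cannot be told apart, and neither can the mouse and the position on the slide. The number of mice limits the precision of every value.

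The 20 Gy arrays were dim. Between 38.0% and 49.1% of the probes were well above background in Cy5 at h2 and between 42.6% and 47.2% at d4, against 48.1% to 65.2% on the 8 sham arrays of h2 and d4. The brightest signals differed more, with the 99th percentile of Cy5 between 839 and 1413 on the 20 Gy arrays and between 7706 and 14950 on those of sham. Arrays of sham could be as dim, since at d7 those of M001 and M005 had a 99th percentile of 1009 and 1004. Levels over all probes correlated between 0.928 and 0.978 within h2, between 0.965 and 0.985 within d4, and between 0.874 and 0.956 across time points. The defining markers of skin, Krt5 and Krt14 of the basal layer, Krt1, Krt10 and Lor of the upper layers and Col1a1, Col3a1, Dcn, Lum and Pdgfra of fibroblasts, were well above background on all 8 arrays. So were Acta1 and Ckm of skeletal muscle and Adipoq of fat, while Cd79a of B cells and Ppbp of platelets were above background on none.

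Of 11147 genes tested, 77 (0.691%) were higher at d4 and 28 (0.251%) were lower, 105 (0.942%) in all. Counted in probes, 92 of 18481 (0.498%) were higher and 59 (0.319%) lower. At an adjusted p under 0.05 with any fold, 328 genes (2.94%) were higher and 204 (1.83%) lower. The split of the calls moved with the scaling: it was 85 higher and 16 lower with each array centred on its median, 47 and 69 from the Cy5 channel alone, 84 and 127 with no background subtraction, and 0 and 8 in the table of normalized values that the authors deposited. Without M021 or without M024 no probe passed, with a lowest adjusted p of 0.0943 and 0.130 in limma. At an unadjusted p under 0.05 and 2-fold there were 237 and 221 probes, against 226 with all 4 mice. All 151 called probes kept their sign in both cases. In the deposited values 74 of the 77 risers and 19 of the 28 fallers kept their sign, with medians of 0.26 and -0.23 against 1.34 and -1.31. The risers were led by Sln, by 8 genes of the Lce1 family and by Hrnr, and the fallers by Defb8, the hemoglobin genes Hba-a1 and Hbb-bt and the class II gene H2-Aa.

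The Lce1 genes are one family of small cornified envelope proteins, and how alike their start regions are was not measured. The promoters of 3 of the risers and of Lce1g, a member that did not pass and was not well above background at h2, are given as 250 bases before to 50 bases after the gene's start, from RefSeq on GRCm38.p6 and read 5′ to 3′ along the gene, with the letters TAAAAGG in capitals.
Lce1i promoter, chr3:92778850-92779149 (minus strand): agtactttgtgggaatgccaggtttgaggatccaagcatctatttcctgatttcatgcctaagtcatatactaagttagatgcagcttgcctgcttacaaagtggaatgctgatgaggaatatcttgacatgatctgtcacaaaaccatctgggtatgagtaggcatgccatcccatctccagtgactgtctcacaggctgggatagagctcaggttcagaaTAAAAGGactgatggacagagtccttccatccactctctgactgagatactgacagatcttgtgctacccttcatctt
Lce1d promoter, chr3:92687161-92687460 (minus strand): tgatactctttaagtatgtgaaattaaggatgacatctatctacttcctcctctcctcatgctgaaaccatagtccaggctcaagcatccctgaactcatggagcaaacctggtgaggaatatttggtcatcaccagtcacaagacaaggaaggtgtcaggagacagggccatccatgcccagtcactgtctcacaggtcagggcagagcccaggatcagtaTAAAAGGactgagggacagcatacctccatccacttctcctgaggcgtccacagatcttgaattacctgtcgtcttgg
Lce1m promoter, chr3:93019012-93019311 (minus strand): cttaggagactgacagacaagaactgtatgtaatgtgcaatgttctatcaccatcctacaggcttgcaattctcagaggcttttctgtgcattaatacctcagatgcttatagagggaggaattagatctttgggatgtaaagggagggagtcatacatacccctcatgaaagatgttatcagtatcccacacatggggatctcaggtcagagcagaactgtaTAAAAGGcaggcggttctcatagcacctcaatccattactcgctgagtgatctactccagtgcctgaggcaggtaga
Lce1g promoter, chr3:92752289-92752588 (minus strand): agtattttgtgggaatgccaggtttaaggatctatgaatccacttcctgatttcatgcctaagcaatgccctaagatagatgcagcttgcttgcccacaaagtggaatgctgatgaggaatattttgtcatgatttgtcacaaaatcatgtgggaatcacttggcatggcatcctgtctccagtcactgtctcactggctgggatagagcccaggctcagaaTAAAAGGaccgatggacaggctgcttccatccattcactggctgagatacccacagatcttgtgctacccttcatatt
In these promoters TAAAAGG began 28 bases before the start, or 27 in Lce1m. The table of promoters held 11 of the 12 measured Lce1 genes, and 10 of these (90.9%) had TAAAAGG on either strand, against 1331 of the 27025 genes in the table (4.93%), with Lce1b the one without it. The motif was chosen after the sequences were read and is a description of the letters.

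Of the 12 measured Lce1 genes 10 rose from h2 to d4, against 0.691% of all genes. Each of the 10 rose in all 4 mice, with changes between 1.28 (Lce1m) and 3.09 (Lce1f). The family was singled out after values had been seen, and its count is a description. The level of Lce1f was 2.02, 1.27, 2.49 and 1.49 at h2 in M021 to M024, and 3.88, 5.34, 4.90 and 5.48 at d4. Every d4 array was above every h2 array, with the largest step in M022 and the smallest in M021. The change was 3.09 ± 0.39 (SE, n = 4 mice), or 8.49-fold, with an adjusted p of 0.0206 in limma. Lce1i was at 2.38, 1.53, 2.55 and 1.91 at h2 and at 4.21, 5.20, 5.08 and 5.21 at d4, and rose 7.11-fold (2.83 ± 0.29, adjusted p = 0.0188 in limma). Lce1d rose 7.05-fold, Lce1c 6.76-fold, Lce1e 6.52-fold, Lce1a1 6.14-fold, Lce1a2 5.90-fold, Lce1h 5.84-fold and Lce1b by 2.08 on the log2 scale. Lce1l had a change of 0.95 and did not pass. Lce1g was well above background on 0 of 4 arrays at h2 and 4 of 4 at d4, so that its level at d4 was at least 1.39-fold higher (adjusted p = 0.0561 in limma), and it did not pass. Family members are so alike that one transcript may bind the probes of several, and with the scanner software's own log ratio in place of loess the changes of Lce1d, Lce1a1 and Lce1a2 came to 0.14, 0.14 and 0.50 and did not pass. That of Lce1m was 0.77 with no background subtraction, 0.77 from Cy5 alone and 0.68 with the scanner's ratio, all under 2-fold.

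**Figure D1:**
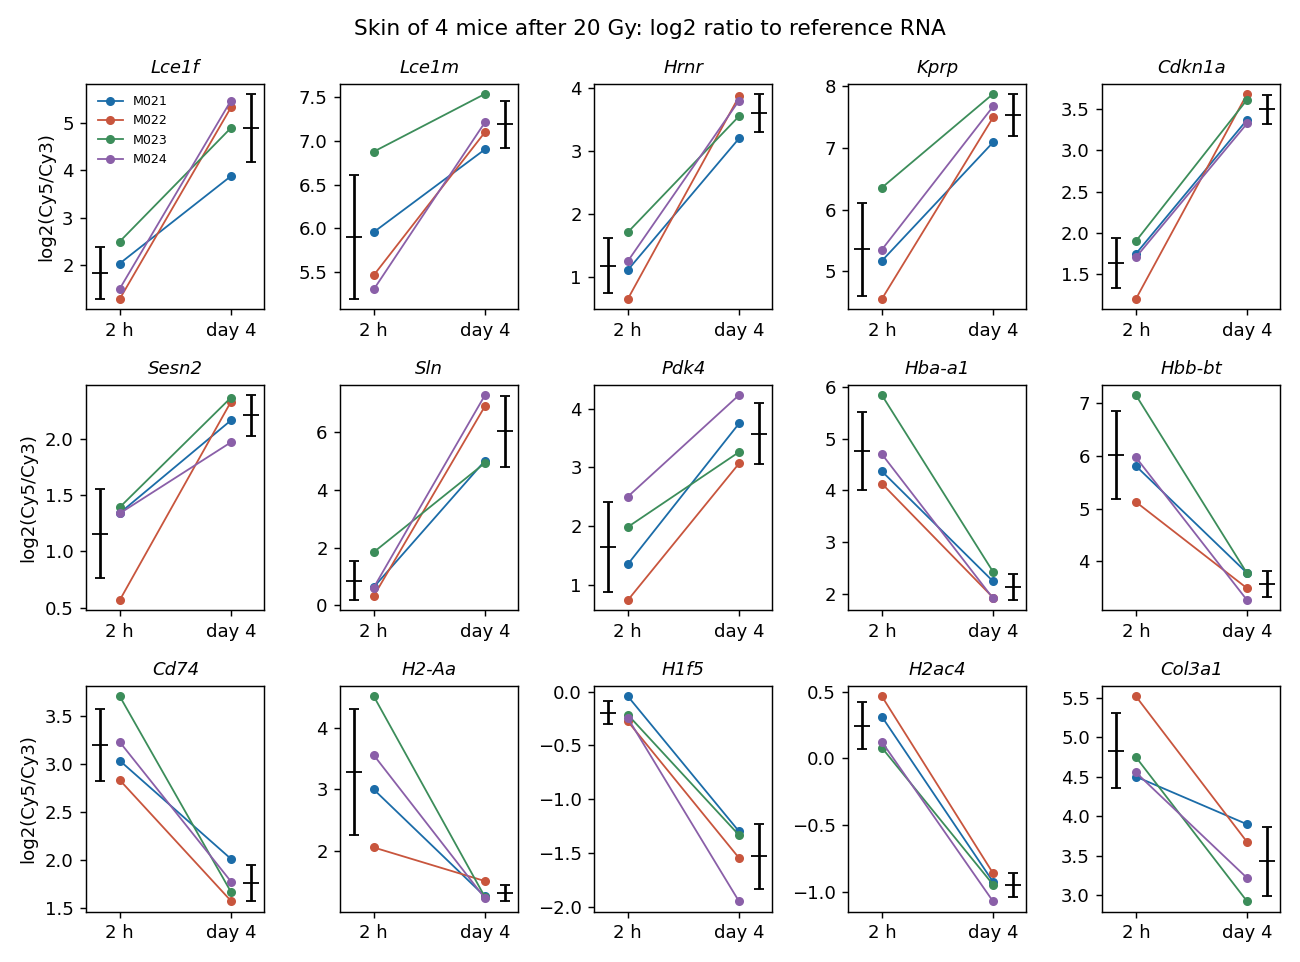
Level (log2 of biopsy over reference) of 15 genes that passed, at 2 h and day 4 after 20 Gy, with a coloured line for each of the 4 mice and black bars for the mean and SD of each time point. The vertical axes differ between panels and do not start at 0. All 4 lines run up in the 8 risers, from Lce1f (1.27 to 2.49 at h2, 3.88 to 5.48 at d4) to Pdk4, and down in the 7 fallers, from Hba-a1 to Col3a1.

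Across the epidermal differentiation complex as a whole, 13 of 39 measured genes rose and none fell past both thresholds, against 0.691% and 0.251% of all genes. This group was gathered after values had been seen, and its count is a description. In the order of the genes on the chromosome, 7 called neighbours stood in one run, from Lce1a1 to Lce1f. Hrnr, which encodes hornerin, a filaggrin-like protein of the cornified layer, was at 1.11, 0.65, 1.71 and 1.25 at h2 and at 3.20, 3.87, 3.55 and 3.80 at d4, with no overlap of the groups. It rose 5.37-fold (2.43 ± 0.22, adjusted p = 0.0188 in limma). Kprp, the keratinocyte proline-rich protein, rose by 2.18 and Crct1 by 1.08 on the log2 scale. For Crct1 the call ended with no background subtraction (0.60) and from Cy5 alone (0.86), and with the scanner's ratio its sign turned (-0.09). Other genes of the complex did not pass, among them Lor (0.63, loricrin), Flg2 (0.66) and Ivl (0.09, involucrin).

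**Figure D2:**
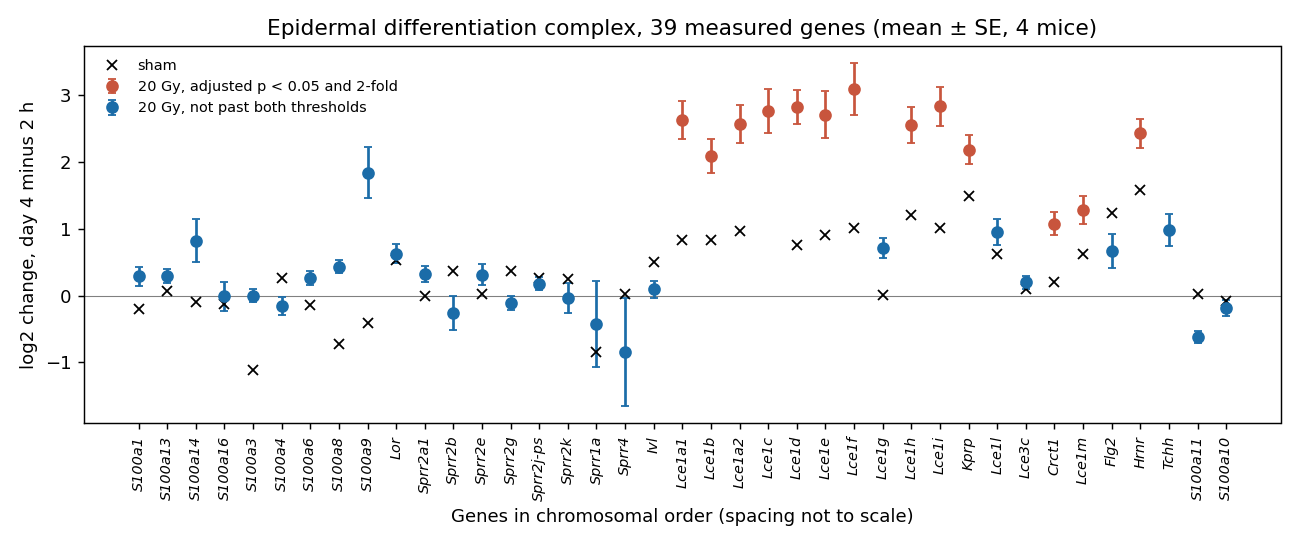
Change from h2 to d4 (log2, mean and SE of 4 mice) of the 39 measured genes of the epidermal differentiation complex in their order on the chromosome, with equal spacing. Red points passed both thresholds, blue points did not, and crosses are the mean change of the sham mice; the point of Lce1g rests on h2 signals that were not well above background. The 13 red points lie between 1.08 and 3.09, most of them in the Lce1 stretch, while Lor and Ivl lie at 0.63 and 0.09.

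The median change of a wider list of the upper epidermis was above 0 in all 4 mice. Of 25 measured genes of a list of differentiated epidermis, 9 rose, against 0.691% of all genes, and 16 did not pass. The change was above 0 in 25 of 25, against 51.6% of all genes. The median of the list was 0.76, against 0.01 over all genes, and by mouse it was 0.65, 1.64, 0.48 and 0.63, so that M022 moved most. The list holds Lce1 members, so its count repeats part of the one above. Cdsn, the corneodesmosin that glues cornified cells together, rose by 1.46 and Calm4, a calmodulin-like protein of the upper layers, by 1.40, from 6.17, 5.50, 6.68 and 6.33 at h2 to 7.25, 7.93, 7.79 and 7.31 at d4. From Cy5 alone and with no background subtraction both stayed under 2-fold (0.79 and 0.97 for Cdsn, 0.88 and 0.88 for Calm4), as did Cdsn with median centring (0.82) and Calm4 with the scanner's ratio (0.79). Krt1 (0.63) and Krt10 (0.25), the keratins of the layers below, did not pass. The sham mice, biopsied at the same times, had a median change of 0.63 over the same list, with 22 of 23 genes above 0 and none called. Without M002, a sham mouse read by another scanner, the median was 0.48, with 23 of 23 above 0.

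Several further risers are also known from keratinocytes. Il1f5, which encodes an antagonist of the IL-36 receptor, went from 2.10, 1.36, 3.15 and 2.69 to 4.19, 4.57, 4.43 and 4.32, a rise of 4.15-fold. Cysrt1 rose by 1.87, the protease inhibitor Csta1 by 1.86, the asparaginase Aspg by 1.95 and Wfdc21 by 2.30 on the log2 scale. Krt23 (1.39), Krt78 (1.20), the serpin Serpinb5 (1.26), the gap junction gene Gjb5 (1.32), the histidine ammonia-lyase gene Hal (1.45) and the transcription factor gene Grhl1 (1.25), needed for the epidermal barrier, also rose. From Cy5 alone the changes of Il1f5, Krt23, Krt78, Serpinb5, Gjb5, Hal and Grhl1 were between 0.60 and 0.98, under 2-fold. In sham mice the mean changes of Il1f5, Cysrt1, Csta1, Aspg and Wfdc21 were 0.96, 0.53, 1.37, 0.38 and 1.36. Without M002 they were 1.13, 0.63, 1.33, 0.74 and 0.83. Those of Krt23, Krt78, Serpinb5, Gjb5 and Hal were 0.33, 0.53, 0.02, 0.55 and 1.12, or 0.38, 0.18, 0.30, 0.53 and 0.63 without M002. For Grhl1 the sham mean without M002 was 0.75. The genes of this paragraph, apart from Wfdc21, were picked for naming after their values were seen.

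No gene of the basal layer passed. Of 15 measured genes of basal epidermis none passed both thresholds, and 2 reached an adjusted p under 0.05 with a higher level, against 2.94% of all genes. The median of the list was 0.22. Krt14, the basal keratin, had a change of 0.22 ± 0.34 (adjusted p = 0.743 in limma). Itgb4 (0.92), a hemidesmosome integrin gene, reached an adjusted p under 0.05 at less than 2-fold. In the list of activated keratinocytes none of 12 passed and the mice differed in sign, with medians of -0.53, 1.27, 0.08 and -0.78. Krt6a, a keratin of wounded epidermis, had a change of -0.77 ± 0.61, and Slpi one of -0.54. Mt4, a metallothionein of stratified epithelium, had a change of 0.26.

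Cdkn1a, the p53 target that encodes the cell cycle inhibitor p21, was at 1.75, 1.20, 1.90 and 1.70 at h2 and at 3.37, 3.68, 3.61 and 3.33 at d4. The groups did not overlap, and the step was largest in M022. The rise was 3.63-fold (1.86 ± 0.16, adjusted p = 0.0169 in limma, the lowest that any probe reached). Sesn2, another p53 target, a sestrin of the stress response, was at 1.34, 0.57, 1.39 and 1.34 at h2 and 2.16, 2.33, 2.36 and 1.97 at d4, and rose by 1.05 (adjusted p = 0.0389 in limma). Without the background subtraction, from Cy5 alone or with median centring, its change was 0.90, 0.82 or 0.98 and so under 2-fold.

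Over the list of p53 targets, 24 of 29 genes were measured. Of these 2 rose and none fell, against 0.691% and 0.251% of all genes. An adjusted p under 0.05 with a higher level was reached by 10, against 2.94% of all genes. In 15 of 24 every d4 level was above every h2 level, against 11.6% of all genes. The median change was 0.45, with 0.36, 0.46, 0.27 and 0.36 in the 4 mice. Phlda3, an inhibitor of Akt signaling, was at 0.61, 0.84, 0.78 and 0.66 at h2 and 1.45, 1.60, 1.55 and 1.17 at d4, a change of 0.72 (adjusted p = 0.0202 in limma) that stayed under 2-fold and was -0.05 in the deposited values. Psrc1 (0.80), Trp53inp1 (0.71), Ei24 (0.68), Zmat3 (0.64), the DNA polymerase gene Polk (0.63) and the nuclease gene Aen (0.48) also reached the adjusted p at less than 2-fold. Ccng1 (0.44, adjusted p = 0.124 in limma), Mdm2 (0.09), the ligase that degrades p53, and Bax (-0.16), which promotes cell death, did not. Eda2r was not tested, since it was too dim. In the sham mice the median of the list was 0.00 and the mean change of Cdkn1a was -0.09, or 0.17 without M002.

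Sln, which encodes sarcolipin, a small inhibitor of the calcium pump of muscle, had the largest change of all. It was at 0.63, 0.32, 1.84 and 0.62 at h2 and at 4.999, 6.88, 4.92 and 7.26 at d4, a rise of 35.8-fold (5.16 ± 0.60, adjusted p = 0.0188 in limma). The sham mice had a mean change of 3.12, above 0 in 4 of 4, and the difference between 20 Gy and sham was 2.05 ± 1.02 (adjusted p = 0.611 in limma), or 2.85 without M002 (adjusted p = 0.215). None of the 21 measured genes of the skeletal muscle list passed, their median was 0.06, and the sum of their ratios lay between 1757 and 2856 at h2 and between 1600 and 2997 at d4. Myoz1 (1.22) and Tnnc2 (-0.36) had the lowest p of that list. The sign of Tnnc2 turned with median centring, from Cy5 alone and in the deposited values.

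Pdk4, a kinase that spares glucose in fasting and answers to glucocorticoids, rose 3.83-fold from 1.35, 0.73, 1.98 and 2.50 to 3.75, 3.07, 3.26 and 4.24. Sham mice changed by 2.00 in the mean, or 1.01 without M002, and the difference was -0.06, or 0.93 without M002, and did not pass. Pdk4 was the one gene of 13 in the glucocorticoid list that passed, against 0.942% of all genes. In that list Fkbp5 had a change of -0.83 ± 0.26 (adjusted p = 0.126 in limma) and Tsc22d3 of -0.17. Penk, the precursor of enkephalins, rose by 2.23, and sham mice changed by 1.19. In the sebaceous list 1 of 12 genes rose, against 0.691% of all genes. It was Awat2, a wax ester synthase, which went from 0.39, 0.20, 0.69 and 0.76 to 1.66, 1.57, 2.35 and 2.12, or 2.67-fold (adjusted p = 0.0169 in limma). With median centring its change was 0.68. The adhesion gene Mcam rose by 1.66, from levels between 0.07 and 0.46 to levels between 1.78 and 2.16.

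Defb8, a defensin gene, fell the furthest. It was at 5.22, 2.23, 2.91 and 4.71 at h2 and at 0.25, 0.03, 0.11 and -0.06 at d4, and was well above background on 4 of 4 arrays at h2 and 0 of 4 at d4. The fall was at least 9.72-fold, taken against the dimmest signal that counts as above background on each d4 array (adjusted p = 0.0220 in limma). Mice given less also had lower levels at d4 than at h2, with mean changes of -1.45 at 1 Gy, -3.46 at 3 Gy and -3.73 at 6 Gy, and sham mice changed by -0.55.

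The hemoglobin genes fell in every mouse. Hba-a1 was at 4.37, 4.13, 5.84 and 4.70 at h2 and at 2.24, 1.93, 2.42 and 1.91 at d4, with no overlap, and fell 6.21-fold (-2.63 ± 0.22, adjusted p = 0.0169 in limma). Hbb-bt fell 5.46-fold, from levels between 5.13 and 7.16 to levels between 3.26 and 3.77. Of 15 genes of the erythroid list 5 were measured and these 2 fell, against 0.251% of all genes. Alas2, which makes heme in young red cells, was well above background on 4 of 4 arrays at h2 and 0 of 4 at d4, and did not pass (adjusted p = 0.191 in limma). The summed ratio of the 5 genes, which includes the 2 fallers, was 55.7 to 204 at h2, and at d4 it was 16.8 to 22.5. Their median change was -0.25, with 2 of the 5 above 0. In sham mice Hbb-bt had a mean change of -0.09, or -0.54 without M002, and after 1, 3 and 6 Gy one of -1.65, -4.59 and -4.80. From all mice of sham and lower doses its 20 Gy change differed by 0.39 (adjusted p = 0.964 in limma). Hba-a1 had a mean sham change of -0.49 without M002, which lacked a value. Fewer cells of a type and less RNA per cell cannot be told apart in such biopsies, and the amount of blood in a piece was not measured.

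Among genes of antigen presentation by class II molecules, Cd74 and H2-Aa fell. H2-Aa, a chain of the class II molecule, was at 3.00, 2.06, 4.51 and 3.56 at h2 and at 1.26, 1.51, 1.25 and 1.23 at d4. It fell 3.91-fold (-1.97 ± 0.39, adjusted p = 0.0488 in limma), and the call ended with any other filter on dim probes, at adjusted p between 0.0531 and 0.0630. Cd74, the invariant chain that escorts class II molecules, went from 3.03, 2.83, 3.70 and 3.23 to 2.01, 1.57, 1.67 and 1.77 and fell 2.72-fold (adjusted p = 0.0188 in limma). H2-Ab1, the partner of H2-Aa, had a change of -0.99 (adjusted p = 0.0717 in limma). Of 8 measured genes of the dendritic and Langerhans cell list these 2 fell, against 0.251% of all genes. The summed ratio of the list was 24.6 to 70.7 at h2, and 18.7 to 22.1 at d4. Cd207, which defines Langerhans cells, had a change of -0.09, and the mean change of sham was 0.73 in H2-Aa and 0.39 in Cd74. Those means rested on M002 (2.58 and 2.66), without which they were 0.12 and -0.37, and Cd74 was lower at d4 in 3 of 4 sham mice.

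Col3a1, a fibrillar collagen, was at 4.50, 5.52, 4.75 and 4.56 at h2 and at 3.90, 3.67, 2.92 and 3.22 at d4, and fell 2.65-fold (-1.41 ± 0.21, adjusted p = 0.0290 in limma). With median centring or from Cy5 alone its change was -0.73 or -0.65, under 2-fold. Col1a1 was at 4.67, 6.20, 5.05 and 4.72 at h2 and at 4.81, 4.23, 3.81 and 4.16 at d4, so the groups overlapped, and its change of -0.90 (adjusted p = 0.155 in limma) did not pass. Col1a2 (-1.10, adjusted p = 0.0837 in limma) and Postn (-0.85), a matrix protein of healing wounds, did not pass either, and from Cy5 alone the change of Col1a2 was 0.00. Of 21 measured genes of fibroblasts and matrix 1 fell, and the median was -0.30, with -0.01, -0.07, -0.64 and -0.40 in the 4 mice, turning to 0.07 with median centring. Over all genes 0.691% rose and 0.251% fell. Of 16 genes of the GP6 pathway, which starts at a collagen receptor of platelets, Calm4 rose and Col3a1 fell, and of 8 genes of intrinsic prothrombin activation Col3a1 fell, calls that depend on the settings as given above. Both lists were chosen by the study on these samples.

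Of 25 measured histone genes 4 fell past both thresholds, against 0.251% of all genes. An adjusted p under 0.05 with a lower level was reached by 19 of the 25, against 1.83% of all genes. The median was -0.69, with -0.66, -0.89, -0.52 and -0.79 in the 4 mice, against -0.05 in sham. With median centring it was -0.26, and in the deposited values -0.09. The group was gathered after values had been seen. H1f5, a linker histone, was at -0.04, -0.28, -0.21 and -0.25 at h2 and at -1.30, -1.55, -1.33 and -1.95 at d4, and fell 2.53-fold (-1.34 ± 0.11, adjusted p = 0.0169 in limma). H2ac4, a core histone, was at 0.31, 0.47, 0.08 and 0.12 at h2 and at -0.92, -0.86, -0.95 and -1.07 at d4, and fell 2.29-fold. H2ac23 fell 2.19-fold and H1f4 2.02-fold. The mean h2 levels of H1f5, H2ac4, H2ac23 and H1f4 were -0.19, 0.25, 0.30 and 2.12 after 20 Gy. In sham they were -2.84, -3.06, -2.22 and -2.63 at h2. At d4 the 20 Gy means were -1.53, -0.95, -0.83 and 1.11, still above those of sham (-3.54, -3.31, -2.53 and -2.96). With median centring the changes of H1f5, H2ac4, H2ac23 and H1f4 were -0.96, -0.70, -0.40 and -0.54, all under 2-fold. H2bc4 (0.61), H1f2 (0.37), H2bc21 (0.27) and H2ac18 (0.11) were above 0 and did not pass. Histone genes are near copies of one another, so a probe may read several.

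The promoters of the histone genes of lowest p show the letters they share, CCAAT or its reverse complement ATTGG, in capitals, from the same table and build.
H1f5 promoter, chr13:21780576-21780875 (minus strand): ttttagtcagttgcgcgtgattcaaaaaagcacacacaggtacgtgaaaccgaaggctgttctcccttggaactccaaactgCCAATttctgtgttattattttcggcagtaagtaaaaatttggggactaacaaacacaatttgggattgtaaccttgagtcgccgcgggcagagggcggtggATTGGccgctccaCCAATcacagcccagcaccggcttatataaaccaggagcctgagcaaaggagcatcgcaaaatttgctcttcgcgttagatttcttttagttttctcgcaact
H2ac4 promoter, chr13:23750838-23751137 (plus strand): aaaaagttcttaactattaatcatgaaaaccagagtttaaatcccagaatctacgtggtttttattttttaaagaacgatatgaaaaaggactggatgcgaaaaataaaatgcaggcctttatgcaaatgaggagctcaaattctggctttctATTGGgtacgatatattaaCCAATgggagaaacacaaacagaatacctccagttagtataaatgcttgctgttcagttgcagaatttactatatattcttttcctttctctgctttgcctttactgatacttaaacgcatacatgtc
Of the 25 genes 21 were in the table of promoters and 20 of these (95.2%) held CCAAT on either strand, against 37.9% of all 27025 genes. The motif was chosen after the sequences were read.

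**Figure D3:**
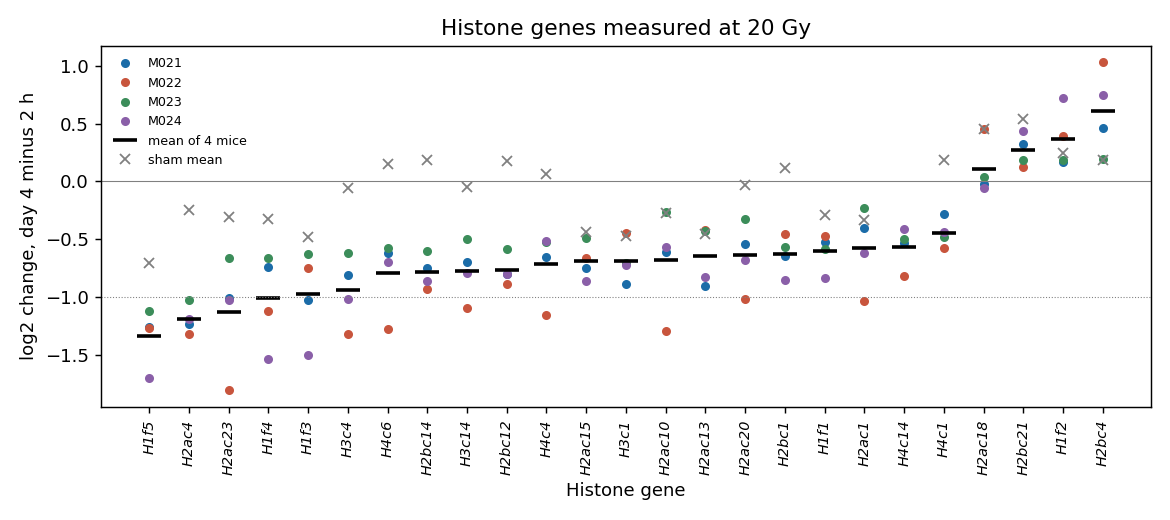
Change from h2 to d4 (log2) of the 25 measured histone genes, with a coloured point for each of the 4 mice, a black bar for their mean, a grey cross for the sham mean and a dotted line at a 2-fold fall. The means of 21 genes lie below 0, down to -1.34 for H1f5, and those of 4 genes above it.

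Genes of mitosis had lower levels at d4 by less than 2-fold. None of 19 measured genes of mitosis passed both thresholds, and 6 reached an adjusted p under 0.05 with a lower level, against 1.83% of all genes. A change above 0 was found in 0 of 19, against 51.6% of all genes. In 13 of 19 every d4 level was below every h2 level, against 9.74% of all genes. Their median was -0.43, and with median centring it was -0.13. In sham it was -0.24, or -0.07 without M002. Ccna2, a cyclin, was at -1.24, -1.24, -1.53 and -1.37 at h2 and at -2.04, -2.15, -1.97 and -2.32 at d4, a change of -0.78 (adjusted p = 0.0241 in limma) that stayed under 2-fold, as did that of Ube2c (-0.59). Mki67 (-0.64) and Cdk1 (-0.29) did not pass. Top2a was well above background on 0 of 4 arrays at d4, at least 1.39-fold lower (adjusted p = 0.0543 in limma), and did not pass. Of 21 genes of DNA replication none passed both thresholds and 3 reached the adjusted p with a lower level, against 1.83% of all genes. Among the 3 were the helicase gene Mcm6 (-0.73) and Gins2 (-0.51). The median of the 21 genes was -0.34, against -0.37 in sham, and -0.06 with median centring. Dut, a dUTPase that keeps uracil out of DNA, fell 2.05-fold, from levels between -0.43 and -0.11 to levels between -1.70 and -1.11, and had a change of -0.59 with median centring.

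Of the other large fallers, Lars2 is a mitochondrial tRNA synthetase gene and Rn28s1 is a ribosomal RNA. After 20 Gy the mean h2 levels of Lars2, Rn28s1, Rgs3 and Pcdh1 were 7.12, 6.92, 5.34 and 5.10. In sham mice they were -1.85, -0.63, -0.15 and 0.48, and the reason was not tested. The level of Lars2 was 7.06, 8.17, 6.45 and 6.81 at h2 and 5.09, 5.52, 5.74 and 4.34 at d4, a fall of 3.87-fold (adjusted p = 0.0317 in limma). From Cy5 alone its change was -0.10 and did not pass. Rn28s1 fell 3.14-fold, from levels between 6.43 and 7.49 to levels between 4.39 and 6.00, and came to -0.95 with median centring and -0.90 from Cy5 alone. Rgs3, a regulator of G protein signaling, fell 3.04-fold and the protocadherin gene Pcdh1 3.02-fold, and both passed with median centring and from Cy5 alone, while in the deposited values the change was 0.07 for Rgs3, its sign turned, and -0.02 for Pcdh1. Eif5a2, a translation factor, fell 2.57-fold, from 3.07, 1.60, 2.75 and 2.89 to levels between 1.03 and 1.31. With median centring its change was -0.64, under 2-fold, and in the deposited values 0.01, its sign turned.

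Other lists showed few or no calls. Of 15 genes of the circadian clock none passed both thresholds. Per1 (-0.64), Bhlhe40 (-0.60) and Dbp (-0.52) reached an adjusted p under 0.05 with a lower level and Nr1d1 (0.58) with a higher one, Per2 (-0.21) did not, and Arntl was not tested. Sham mice changed by -1.01 in Dbp and 0.78 in Nr1d1, or -1.57 and 0.12 without M002. Of 23 immediate early genes none passed, with Jund at -0.78, Klf2 at -0.83, Fos at 0.83 and Egr1 at 0.03. Of 15 heat shock genes none passed, and Hspb1 (0.76) and Hsp90ab1 (-0.92) reached the adjusted p on opposite sides. Of 8 measured inflammation genes Il1r2 had a change of 1.36 (adjusted p = 0.0558 in limma) and Nfkbia one of -0.60, and of 19 interferon genes none passed, with Gbp3 at 0.40 and Oasl1 at -0.35.

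Among cell types, S100a9, an alarmin of neutrophils and stressed keratinocytes, was at 1.53, 0.47, 1.58 and 1.63 at h2 and at 2.63, 3.86, 2.54 and 3.53 at d4. Its groups did not overlap, but its change of 1.84 ± 0.39 (adjusted p = 0.0548 in limma) did not pass and was -0.11 in the deposited values, and none of 5 measured neutrophil genes did. None passed among 12 genes of fat (Car3 -0.82, Acvr1c 0.49), 11 of endothelium (Cldn5 0.65, Egfl7 0.53), 13 of macrophages (Ms4a7 0.61, Cd14 -0.42) or 8 of lymphocytes (Cd79b -0.40, Cd3e -0.21). The same held for 5 mast cell genes (Cpa3 0.37, Cma1 0.53), 4 of platelets (Pf4 0.20, and Gp1bb, for which 0 of 4 arrays were well above background at d4), 4 of melanocytes (Mitf 0.70, Sox10 0.34), 9 of the growing hair follicle (Tchh 0.98, Krt86 -0.28) and 10 of its resting stem cells (Fgf18 0.75, Nfatc1 0.63). None passed of 26 ribosomal protein genes (Rps19 0.69, Rpl8 -0.97) or of 30 respiratory chain genes (Ndufb3 0.38, Cox7a2 0.32). Values in brackets are changes on the log2 scale.

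**Figure D4:**
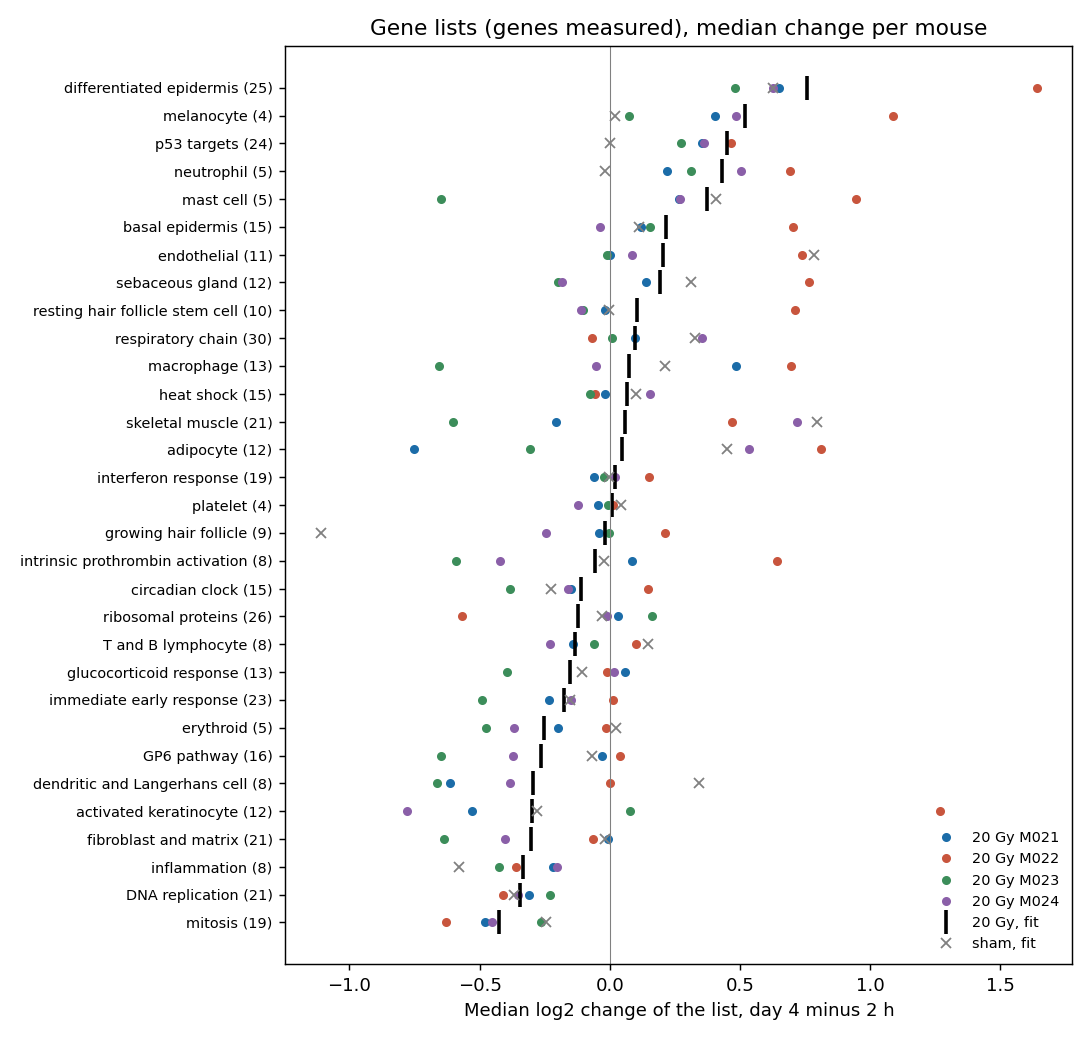
Median change from h2 to d4 (log2) over the measured genes of each list (their number in brackets), with a coloured point for each of the 4 mice, a black bar for the median of the fitted changes and a grey cross for that of sham. The 4 points of differentiated epidermis (0.48 to 1.64) and of p53 targets (0.27 to 0.46) lie above 0, and those of mitosis (-0.63 to -0.26) below it.

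Whether the course after 20 Gy differed from that without radiation was asked directly. In 3 of the 4 sham pairs both arrays lay on one slide, and in none of the 20 Gy pairs, so the difference between slides enters the 20 Gy change and most sham changes lack it, and it cannot be told apart from the dose. In the 4 sham mice no probe of 18181 passed between h2 and d4 (0%, 73 at an unadjusted p under 0.05 and 2-fold in limma). The test of the difference between the 20 Gy and the sham change also called no probe of 18168 (0%, 220 at an unadjusted p under 0.05 and 2-fold, lowest adjusted p 0.139 in limma). Of the 73 genes that rose after 20 Gy and could be followed in sham, 65 had a sham change of the same sign and in 19 it was at least 2-fold, with a median of 0.63 against 1.34 after 20 Gy. Without M002 the sign was the same in 68 and the change at least 2-fold in 8, with a median of 0.51. Of 27 such fallers 12 had the same sign, and their sham median was 0.04 against -1.31, or 11 and 0.09 without M002. Cdkn1a differed from sham by 1.96 ± 0.30 (adjusted p = 0.175 in limma), Lce1f by 2.08 ± 0.67 (adjusted p = 0.439), Hrnr by 0.84, Hbb-bt by -2.36, H2-Aa by -2.70 and Col3a1 by -1.20, none of which passed. Without M002 the difference in Hrnr was 1.49 and that in Cdkn1a 1.69 (adjusted p = 0.222 and 0.0526 in limma), and the other 4 ran from -2.08 in H2-Aa to 2.49 in Lce1f.

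The sham pair M002 was read by another scanner than the other sham pairs and the 20 Gy arrays, and its arrays lay on different slides. Leaving it out keeps only sham pairs with both arrays on one slide. Without it, 8 probes were higher and 5 lower in the difference, and the genes so called were Hamp2, Ctla2a, Ptp4a3, Mcam, Siva1 and Ccnd2 on the higher side and H2bc12 and H2bc14, core histones, on the lower. For Ccnd2 the called probe was not the one of highest mean Cy5. The called probes of Siva1, Ccnd2, H2bc12 and H2bc14 did not pass in the 20 Gy change itself. Mcam differed by 1.24 and H2bc14 by -1.14. Like M002, mice M007, M009, M012 to M016 and M020 of the lower doses were read by the other scanner. Against all 15 mice of sham, 1, 3 and 6 Gy that had both time points, which include these, 5 of 17567 probes (0.0285%) were higher and 8 (0.0455%) lower. The named genes among them were Dppa5a (1.44) on the higher side and Zfp866 (-1.62), Myl12b (-1.48), Pcdh1 (-1.46), Anp32b (-1.08) and Yif1b (-1.07) on the lower. The levels of Anp32b, a histone chaperone, were 1.56, 2.12, 1.15 and 1.32 at h2 and 0.42, 0.46, 0.51 and -0.05 at d4 after 20 Gy, while its change in the 15 other mice ran from -0.94 to 0.58.

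Set beside one another without a test, the changes at the other doses were as follows. Cdkn1a had a mean change of 0.35 in the 1 Gy mice, 0.17 in those of 3 Gy and 1.35 in those of 6 Gy. The median of the p53 list was 0.16, 0.17 and 0.40 in the same order, and that of differentiated epidermis was 0.19, -1.05 and 0.93. Mitosis genes had medians of -0.09, 1.01 and -0.81. These groups held 3, 5 and 3 mice, and single mice spread widely: over the 15 mice the change of Lce1f ran from -2.29 to 3.69 and that of Cdkn1a from -0.90 to 1.64.

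At d7, 3 of the mice (M022 to M024) gave one more array each, on other slides, and these levels are given as values. The mean level of Lce1f was 2.36 at d7, after 1.82 at h2 and 4.90 at d4. Cdkn1a stood at 1.63, after 1.64 and 3.50. Sln was at 5.31, and Pdk4 at 4.69. Hba-a1 (1.38), Cd74 (0.21) and Col3a1 (-1.65) lay below their d4 means of 2.13, 1.76 and 3.43, and H1f5 was at -3.74 after -0.19 and -1.53.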

How the data were processed

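Per the labels, each array carried Cy5-labeled biopsy RNA and Cy3-labeled reference RNA, with no dye swap. The authors deposited, for 45018 spots an array, raw median intensity values of Cy5, Cy3 and their surroundings from Agilent Feature Extraction, version 11.0.1.1 in the submitters' processing notes. The deposited log10 ratio is the scanner software's own. A second deposited table holds the authors' normalized log2 values, whose steps are not given in the sources used here. Its columns correlated between 0.606 and 0.755 with the scanner values of the 8 arrays, and 33 of all 82 columns correlated best with their own array, so scale and centring are unknown there. It has 41267 entries, of which 41174 matched a probe.

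With limma 3.58.1 in R 4.3.3, background was corrected by normexp (offset 50), log2 ratios were normalized by loess within each array with the 1639 control spots at weight 0, spots marked as outliers were dropped, and spots of a probe were averaged. A probe was tested if 4 or more of the 8 arrays had it well above background in Cy5 and all had a value (15 were left out for a missing value). Symbols came from a RefSeq table of GRCm38.p6 through probe accessions (27553 of 41174 probes). A gene was read from its probe of highest mean Cy5. The fit had mouse as a block. Benjamini-Hochberg adjustment ran over all probes tested, and thresholds were those of the study. The difference from sham was an interaction over 16 arrays. Scripts were tested on simulated data.

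The pairing comes from the mouse numbers in the labels. Deviations of the 2 arrays of a mouse from their group means correlated at 0.11, -0.07, -0.10 and 0.19, where the best match among the other mice was 0.21, 0.28, 0.29 and 0.05, so that 1 of 4 matched its own mouse best. Signal over background limits what could be measured, and the number of arrays limits the precision. Nothing was pooled, and each mouse counted as 1 replicate.

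Named genes were the 12 largest risers and fallers that moved one way in all mice and probes, up to 4 called members of each list (or the 2 of lowest p), and a set of genes always given. Not all genes so selected are reported here, and the further genes named in the text were chosen after their values were seen. The comparison, the lists and this rule were chosen with earlier results of these data known. Gene lists were counted, with no set test. Alternatives were other normalizations, background corrections and filters, the deposited log2 table, no block, the fit of all mice and each mouse left out.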

Additional observations from a re-analysis of the deposited data

Results flagged for a closer look

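Of 182 groups of 4 arrays (91 named genes at 2 time points), 16 held an array far from the other 3, by a gap to the nearest that is above Dixon's critical share of the group's range. Chance marks about 1 in 20 such groups. Values are levels on the log2 scale.

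At h2, M022 stood apart in 5 genes. It was low in Sesn2 (0.57, others 1.34 to 1.39), S100a9 (0.47, others 1.53 to 1.63), Sox10 (0.14, others 0.48 to 0.49) and Postn (1.29, others 1.90 to 2.00), and high in Mdm2 (-0.38, others -0.76 to -0.71). Also at h2, M021 was low in Pf4 (0.18, others 0.78 to 0.83) and M024 high in Gbp3 (0.32, others -0.00 to 0.05).

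At d4, M021 was low in Lce1i (4.21, others 5.08 to 5.21), Lce1d (5.67, others 6.49 to 6.59) and Egfl7 (0.65, others 1.41 to 1.495). M022 was high in H2-Aa (1.51, others 1.23 to 1.26) and Nfkbia (0.23, others -0.15 to -0.10). M023 was high in Fgf18 (3.91, others 3.68 to 3.70). M024 was low in Oasl1 (-0.92, others -0.72 to -0.69) and Rpl8 (0.47, others 0.95 to 1.00) and high in Ndufb3 (1.78, others 1.44 to 1.49). For Lce1i and Lce1d the low array was still above every h2 array.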

How the results depend on the processing

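Against 92 probes higher and 59 lower, the counts were 107 and 60 with no replicate block, 85 and 16 with median centring, 588 and 279 with the scanner software's log ratio, 0 and 8 in the deposited values, 47 and 69 from Cy5 alone, 84 and 127 with no background subtraction, and 21 and 21 with the spread shared over all mice. Dropping a mouse gave 0 to 134 higher and 0 to 104 lower. The other filters kept the counts within 1.5 times. Without M021 or M024 no gene of any list passed. In either case 11 genes of differentiated epidermis were still at least 2-fold higher, as with all mice. Of histone genes, 4 were at least 2-fold lower without M021 and 3 without M024, against 4 with all mice. The difference from sham had 0 probes higher and 0 lower, 2 and 3 with no replicate block, 56 and 37 with the scanner log ratio, 15 and 48 from Cy5 alone, 8 and 5 with sham mice of the same scanner alone (which leaves out M002), 5 and 8 against all mice of lower doses, and 0 to 8 and 0 to 5 on dropping a mouse. Of 91 named genes, signs turned in 4 with median centring, 2 with the scanner log ratio, 2 from Cy5 alone and 19 in the deposited values, among them Rgs3 (0.0724), Eif5a2 (0.014), Tchh (-1.002), Klf2 (0.41), Fos (-0.69) and Mitf (-0.22). Of 33 list medians, 6, 7, 5 and 7 turned in the same order, among them fibroblast and matrix (0.0748), GP6 (0.05) and ribosomal proteins (0.52) with median centring, and neutrophil (-0.0284), melanocyte (-0.35) and basal epidermis (-0.03) in the deposited values. The causes were not tested. A fit with slide as a block could not be made, since each time point lay on 1 slide. Calls of the lists without each mouse were added after the data had been seen: of 25 genes of differentiated epidermis 0 to 9 passed (9 with all mice), and of 25 histone genes 0 to 6 (4 with all mice). Dim probes limit the counts, since most probes were not well above background.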
